A study of Mus musculus with 9 samples.

Results

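Mitochondrial ribosomal protein genes encode the proteins of the ribosome that works inside mitochondria. They were followed here in whole-eye RNA of 3 inbred mouse strains. Members were all genes whose symbol begins with Mrpl or Mrps and then a number, which gave 74 of the 13089 genes in the deposited tables. By the known structure of the complex, 26 of them encode proteins of the small subunit and 47 proteins of the large subunit. Mrps30 and Mrps18a, despite their symbols, are counted with the large subunit. The 74th, Mrps36, carries a ribosomal name, but its protein is known as a part of the mitochondrial oxoglutarate dehydrogenase complex and not of the ribosome.

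The eyes came from wild-type female mice of 4 weeks, of A/J, of BALB/c and of C57BL/6J, strains which the study chose for their unequal rates of retinal degeneration. Each strain had 3 poly(A) RNA sequencing libraries, and each library was made from pooled RNA of 5 mice. Libraries are named by strain and replicate number, and lists of 3 values give replicates 1, 2 and 3 in that order. Whether a strain's 3 libraries came from separate pools of mice is not in the labels, so p-values measure only how libraries scatter, and that scatter may be technical. A strain differs from another at many loci at once, and a whole eye mixes many cell types. Fewer cells of a type and less RNA per cell therefore cannot be told apart.

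Mitochondria keep a small genome whose messages encode core subunits of the respiratory chain and of ATP synthase. These messages are translated inside the organelle by a dedicated ribosome. Its RNAs come from the mitochondrial genome, while all of its proteins are encoded in the nucleus, made in the cytosol and imported. Many of the proteins descend from bacterial ribosomal proteins, and others have no bacterial counterpart and are found only in mitochondria. Photoreceptors, with their dense packing of mitochondria, are among the cells with the highest demand for respiration. Promoters of nuclear genes for mitochondrial proteins often hold sites for the transcription factors NRF1, GABP of the ETS family, and YY1.

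Values are RPKM, read counts scaled by transcript length and by the mapped reads of the library, which can be compared between genes because of the division by length. The depth of the libraries is unknown, and the tables' RPKM summed to 511888 to 599635 per library, which says nothing of depth. Markers of rods, lens, surface epithelium and retinal pigment epithelium were present in every library, with summed levels of 879 to 1345 RPKM for 5 pigment epithelium genes. Blood genes were low in 8 libraries, at 1.66 to 9.04 RPKM summed over 3 genes, and at 30.4 in C57BL/6J 3, the 1 library where the globin gene Hba-a1 was not listed at 0. Some libraries stood apart in other ways too. The 6 lens markers summed to 38554 RPKM in C57BL/6J 3 against 63263 to 102128 in the other libraries, and the 4 oligodendrocyte markers to 961 in A/J 1 and 26.9 in C57BL/6J 3 against 125 to 309 elsewhere. In A/J 1 and A/J 2, but not in A/J 3, genes with GC-rich transcripts were low relative to GC-poor ones, as described below for the members. The counts of called members are therefore also given without A/J 1 and A/J 2, and without A/J 3 and C57BL/6J 3. The part of these libraries' composition in the results was not tested.

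All 74 members were expressed, and all passed the filter for testing, which asked for 1 RPKM in at least 3 libraries. The median member, by its mean over 9 libraries, stood at 20.6 RPKM, against 9.43 for all 12920 genes tested. Mrpl28, Mrpl30 and Mrpl20, all with bacterial homologues in the large subunit, had the highest means (63.4, 61.9 and 57.4 RPKM). Mrpl28 was at 54.88, 55.67 and 69.22 in A/J and 64.1, 73.47 and 73.38 in BALB/c, while C57BL/6J had 61.64, 60.5 and 57.97. All BALB/c libraries lay above those of C57BL/6J, and A/J overlapped both. Mrpl30 was at 70.85, 83.55 and 53.84 in A/J and 68.81, 56.51 and 60.52 in BALB/c, with C57BL/6J at 60.02, 55.45 and 47.58. Mrpl20 was at 59.25, 63.98 and 47.63, then 65.16, 53.32 and 58.52, then 62.26, 57.17 and 49.39 in the same order of strains. For both, the third A/J library and the third C57BL/6J library were the lowest of their strain. The lowest means belonged to Mrpl1 (2.77), Mrps36 (3.01) and Mrps18b (4.78). Mrpl1, homologue of the bacterial protein of the stalk beside the exit site for tRNA, had 3.75, 4.61 and 2.04 RPKM in A/J and 2.37, 1.99 and 1.94 in BALB/c, while C57BL/6J had 2.89, 2.49 and 2.86.

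The members as a group took a small and narrow share of the eye's RNA. Their summed RPKM was 1723, 1822 and 1548 in A/J and 1908, 1742 and 1877 in BALB/c, with C57BL/6J at 1821, 1670 and 1621. This was 0.295% to 0.356% of the RPKM sum of a library. The balance of the subunits was similar across libraries. The mean level of a small-subunit gene divided by that of a large-subunit gene was 0.751, 0.724 and 0.763 in A/J and 0.739, 0.753 and 0.739 in BALB/c, while C57BL/6J had 0.774, 0.77 and 0.824, with the highest ratio in C57BL/6J 3. The C57BL/6J libraries all lay above the A/J and BALB/c libraries in this ratio, on the values as deposited and with no test.

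Differences between strains were tested with limma on log2 of the scaled RPKM plus 0.5, across all 12920 genes, and a gene was called at a Benjamini-Hochberg adjusted p under 0.05. BALB/c eyes carried more of several of these messages than C57BL/6J eyes. Of the 74 members, 6 (8.11%) were higher in BALB/c and none was lower, while 3.09% of all genes tested were called, 1.93% as higher. Of these 6, 3 encode small-subunit proteins (Mrps16, Mrps18b, Mrps21), 2 encode large-subunit proteins (Mrpl16, Mrpl52), and Mrps36 is the other. A/J eyes carried less than BALB/c eyes of 7 members (9.46%) and more of none. In that comparison 2.48% of all genes were called, 1.9% as lower. These 7 were Mrps36, Mrpl27, Mrpl52, Mrpl14, Mrps18b, Mrps16 and Mrpl4. Against C57BL/6J, A/J differed in 1 member (1.35%), Mrpl27, which was lower. There 2.69% of all genes were called, 1.62% as lower. A difference of any kind among the 3 strains was called for 7 members (9.46%), namely Mrpl4, Mrpl14, Mrpl27, Mrpl52, Mrps16, Mrps18b and Mrps36, against 4.47% of all genes. The 3 comparisons share libraries and are not independent of each other. In the GENCODE annotation the 9 genes called in at least 1 comparison lie on chromosomes 3 (Mrps21), 9 (Mrpl4), 11 (Mrpl27), 13 (Mrps36), 14 (Mrpl52 and Mrps16), 17 (Mrpl14 and Mrps18b) and 19 (Mrpl16).

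**Figure D1:**
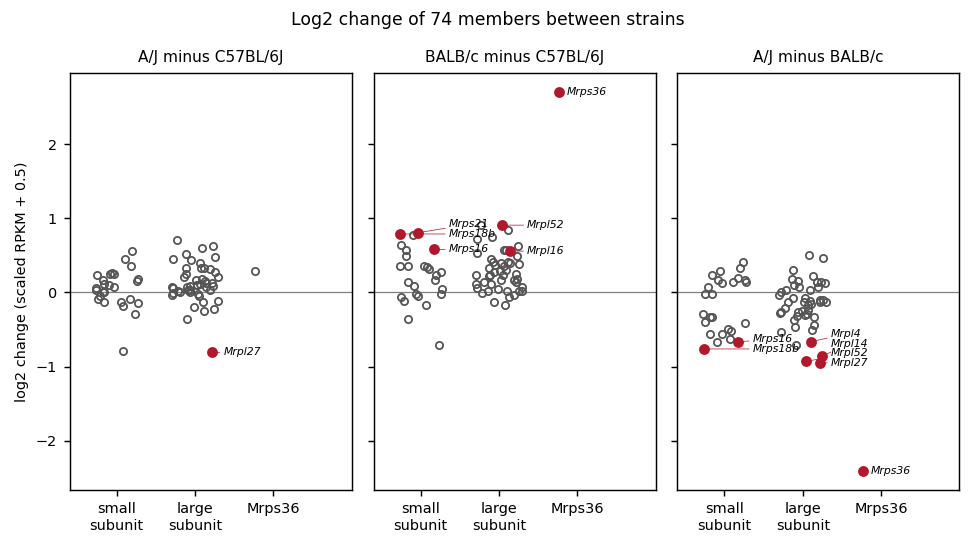
Log2 change (on the scale of scaled RPKM + 0.5) of each of the 74 members in the 3 comparisons, 1 point per gene, spread sideways at random within small subunit, large subunit and Mrps36. Filled red points with names passed an adjusted p under 0.05 and open points did not; Mrps36 stands at 2.70 and -2.41, and the other named members between -0.95 and 0.91.

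Mrps36 had the largest change of all members in both comparisons with BALB/c. It had 1.05, 0.85 and 1.18 RPKM in A/J and 7.35, 6.71 and 7.5 in BALB/c, with C57BL/6J at 0.68, 1.14 and 0.62. The 3 BALB/c libraries lay far above the other 6, which overlapped each other. The mean in BALB/c (7.19 ± 0.42 RPKM, SD, n = 3) was 8.84 times that in C57BL/6J (0.813 ± 0.284) and 7.0 times that in A/J (1.03 ± 0.166). The log2 change was 2.70 against C57BL/6J (SE 0.18, limma adjusted p = 6.1e-05) and -2.41 for A/J against BALB/c (SE 0.18, adjusted p = 0.000288). Between A/J and C57BL/6J it was 0.29 (adjusted p = 0.362). Both calls held in all 20 alternative fits, with adjusted p up to 0.00131 and 0.0271. Of the 31-base stretches of its transcripts, 21% also occur at other annotated loci, mainly the pseudogenes Mrps36-ps1 (16.1%) and Mrps36-ps2 (15%), so how reads were shared among these loci is uncertain.

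Genes beside Mrps36 on chromosome 13, by their order in RefSeq, were looked at for the same comparison, and none of the 4 tested was called. On one side, Cdk7, a kinase of the transcription machinery, had 4.39, 4.72 and 3.72 RPKM in A/J and 3.66, 3.18 and 3.21 in BALB/c, while C57BL/6J had 4.54, 4.05 and 3.94 (BALB/c minus C57BL/6J log2 change -0.12, adjusted p = 0.815). Beyond it, Ccdc125 was not analysed here. Taf9 on the same side (0.06, adjusted p = 0.956), and Ccnb1 and Slc30a5 on the other side (-0.08, adjusted p = 0.962, and -0.05, adjusted p = 0.933), were not called either. Cenph, the nearest on that side, did not pass the filter, with 0.37 to 1.52 RPKM.

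Promoter windows of 250 bases before to 50 bases after the start of transcription were taken from RefSeq on GRCm38.p6, which is the C57BL/6J reference and not the sequence of A/J or BALB/c. Windows were found for 65 of the 74 members, 71 windows in all. They were searched on both strands for 3 motifs with exact letters: GCATGCGC for NRF1, CCGGAAG for GABP and its ETS relatives, and AAGATGGCG for YY1. NRF1 letters were in 8 of the 71 windows (11.3%), against 4.8% of the 12923 windows found for 9998 of the genes tested. The ETS letters were in 24 windows (33.8%, against 15.7%), and the YY1 letters in 7 (9.9%, against 2.7%). In all, 33 windows held at least 1 of the motifs, and no matches to different motifs overlapped. In 3 windows, those of Mrpl32, Mrpl39 and Mrpl9, matches to the NRF1 letters on opposite strands overlapped each other. A match is a description of the letters, not a binding site.

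The windows of 3 members with calls in both comparisons with BALB/c are shown, since they differ in what they hold. That of Mrps36 (chr13:100744610-100744909, minus strand) has none of the 3 motifs in these letters. That of Mrpl52 (chr14:54426659-54426958, plus strand) has the ETS letters at positions -47 and 2, and that of Mrps18b (chr17:35916391-35916690, minus strand) has the NRF1 letters at -223 and 28 and the ETS letters at 43. Positions give the first base of a match, counted from the start site as 0. Each sequence is written 5′ to 3′ along its gene's strand, with the matches to either strand of a motif in capitals.
Mrps36: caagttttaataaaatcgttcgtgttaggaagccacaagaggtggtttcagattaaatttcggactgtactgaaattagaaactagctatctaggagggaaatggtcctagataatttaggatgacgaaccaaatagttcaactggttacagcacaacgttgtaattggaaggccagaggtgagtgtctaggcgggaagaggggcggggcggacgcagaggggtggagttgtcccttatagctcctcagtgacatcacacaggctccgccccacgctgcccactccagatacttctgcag
Mrpl52: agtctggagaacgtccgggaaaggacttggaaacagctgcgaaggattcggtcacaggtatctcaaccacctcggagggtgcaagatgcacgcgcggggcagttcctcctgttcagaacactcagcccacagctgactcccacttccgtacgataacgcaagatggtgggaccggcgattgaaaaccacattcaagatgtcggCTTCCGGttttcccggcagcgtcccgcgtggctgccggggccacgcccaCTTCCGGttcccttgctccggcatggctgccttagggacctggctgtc
Mrps18b: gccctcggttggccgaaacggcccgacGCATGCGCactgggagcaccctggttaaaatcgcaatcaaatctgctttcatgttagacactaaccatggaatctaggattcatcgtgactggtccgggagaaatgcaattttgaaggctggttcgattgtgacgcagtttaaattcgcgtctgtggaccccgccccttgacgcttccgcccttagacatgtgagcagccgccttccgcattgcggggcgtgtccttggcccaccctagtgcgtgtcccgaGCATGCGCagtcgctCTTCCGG

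Among ribosomal proteins proper, Mrpl52, a mitochondria-specific protein of the large subunit, had the largest called change of BALB/c against C57BL/6J. Its levels were 28.19, 28.99 and 31.33 RPKM in A/J and 52.96, 53.46 and 55.64 in BALB/c, with C57BL/6J at 28.92, 37.1 and 31.56. All BALB/c libraries lay above all others, and A/J and C57BL/6J overlapped. The mean in BALB/c (54.0 ± 1.43, SD, n = 3) was 1.66 times that in C57BL/6J (32.5 ± 4.17) and 1.83 times that in A/J (29.5 ± 1.63). The log2 change was 0.91 against C57BL/6J (SE 0.14, adjusted p = 0.00804) and -0.93 for A/J against BALB/c (SE 0.14, adjusted p = 0.00867). The first call was lost without BALB/c 2 or BALB/c 3 (adjusted p 0.0567 and 0.0639). The second was lost without A/J 1, BALB/c 2 or BALB/c 3 (0.0565 to 0.0733), without A/J 1 and A/J 2 together (0.205), and after correction for GC content (0.0961, or 0.0646 with the replicate number as a block). None of its 31-base stretches occurs elsewhere.

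Mrps18b on chromosome 17 is 1 of a trio of related genes, with Mrps18a and Mrps18c, whose proteins resemble the same bacterial protein. Despite this resemblance, only Mrps18c is counted here among members with a bacterial homologue. Mrps18a and Mrps18b are counted as mitochondria-specific. Mrps18b reached 3.53, 3.62 and 4.31 RPKM in A/J and 6.35, 6.32 and 6.79 in BALB/c, while C57BL/6J had 4.06, 3.79 and 4.24. BALB/c lay above both other strains, which overlapped. Its log2 change was 0.79 against C57BL/6J (SE 0.12, adjusted p = 0.007), a ratio of means of 1.61, and -0.76 for A/J against BALB/c (SE 0.12, adjusted p = 0.0104). The call against C57BL/6J was lost without BALB/c 2 or BALB/c 3 (0.0524 and 0.0639). That of A/J against BALB/c was lost without A/J 1 or any 1 BALB/c library (0.0577 to 0.0912), and without A/J 1 and A/J 2 together (0.202). Its exons overlap those of Gm16279 on the opposite strand over 30.5% of their length, and 16.7% of its 31-base stretches occur at Gm13552. The strandedness of the counting is not given in the sources used here. Of the other two genes of the trio, Mrps18c had 18.15, 19.83 and 13.25 RPKM in A/J and 27.52, 23.99 and 25.98 in BALB/c, with C57BL/6J at 19.02, 17.44 and 14.62. BALB/c was again above both, but the test did not call it (log2 change 0.77, adjusted p = 0.083, against C57BL/6J). Mrps18a had no such separation, at 32.66, 34.35 and 25.12, then 29.27, 30.91 and 33.13, then 35.28, 29.61 and 28.08.

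**Figure D2:**
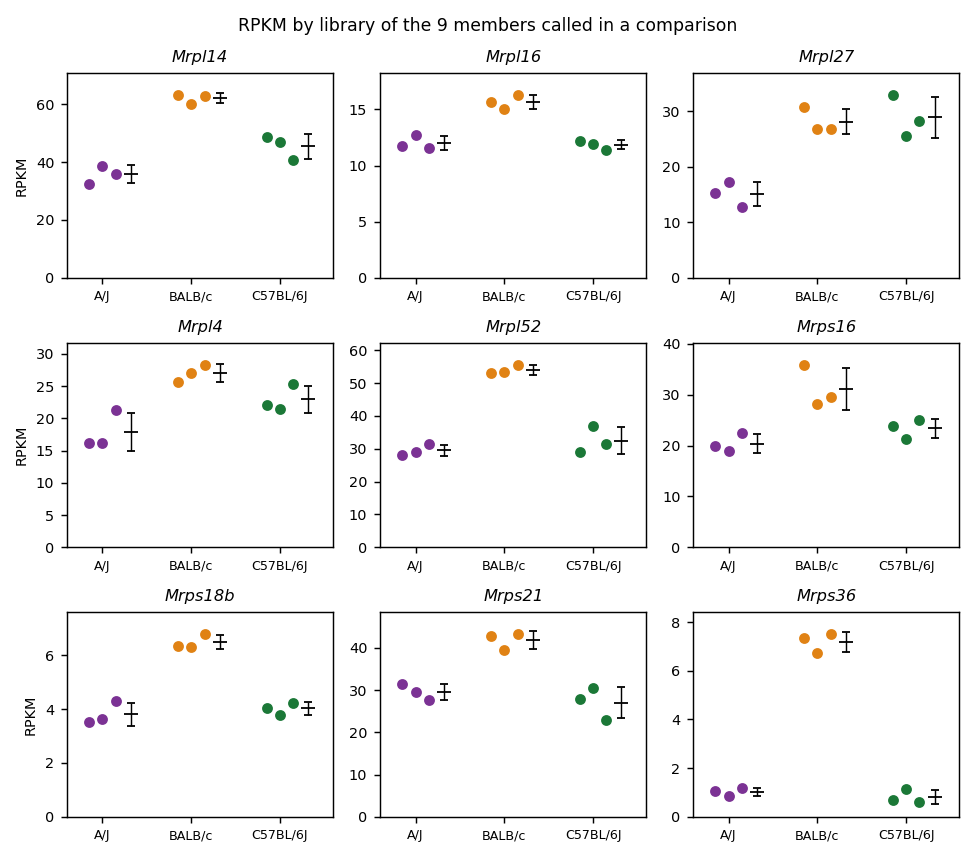
RPKM as deposited of the 9 members called in at least 1 comparison, 1 panel per gene and 1 point per library, in replicate order within a strain; the bar beside each strain is the mean ± SD of its 3 libraries. The BALB/c points lie above all others in every panel except that of Mrpl27, where A/J lies below both other strains.

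Mrps16 and Mrps21, homologues of bacterial small-subunit proteins, and Mrpl16, whose bacterial homologue contacts tRNA in the large subunit, were also called higher in BALB/c than in C57BL/6J. Mrps16, mutated in a human disorder of mitochondrial translation, had 19.84, 18.89 and 22.45 RPKM in A/J and 35.92, 28.13 and 29.6 in BALB/c, while C57BL/6J had 23.89, 21.31 and 24.98. Mrps21 was at 31.37, 29.63 and 27.67 in A/J and 42.81, 39.47 and 43.22 in BALB/c, with C57BL/6J at 27.78, 30.38 and 22.96. Mrpl16 was at 11.76, 12.75 and 11.54 in A/J and 15.64, 15.01 and 16.28 in BALB/c, while C57BL/6J had 12.23, 11.96 and 11.41. In all 3 genes the BALB/c libraries lay above the other 6. Against C57BL/6J the log2 changes were 0.58 for Mrps16 (SE 0.13, adjusted p = 0.0495), 0.81 for Mrps21 (SE 0.16, adjusted p = 0.0331) and 0.56 for Mrpl16 (SE 0.12, adjusted p = 0.047). These 3 calls lie nearest the threshold and were the least stable of the 6. Those of Mrps16 and Mrpl16 were lost without any 1 library except A/J 3 (up to 0.222 and 0.248). They were also lost on the values as deposited (0.177 and 0.12), with quantile normalization (0.0606 and 0.0617), with only the 2 strains in the fit (0.0666 and 0.0614), with the replicate block (0.0632 and 0.0731) and without A/J 1 and A/J 2 together (0.0644 and 0.0595). That of Mrps21 was lost without A/J 1, A/J 2, any 1 BALB/c library or C57BL/6J 1 (0.0545 to 0.176), with quantile normalization (0.052), with only the 2 strains (0.0579) and without A/J 1 and A/J 2 together (0.0565). For Mrps16 the change of A/J against BALB/c was -0.67 (SE 0.13, adjusted p = 0.031). Of the omissions of 1 library, those of A/J 3 and of C57BL/6J 3 kept the call and the others lost it (up to 0.145). It was also lost as deposited (0.0649) and without A/J 1 and A/J 2 together (0.396).

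Mrpl14 and Mrpl4 had less RNA in A/J eyes than in those of BALB/c by the test. Both are homologues of bacterial large-subunit proteins, the first at the face that meets the small subunit and the second along the tunnel through which the new protein leaves. Mrpl14 had 32.57, 38.81 and 36.08 RPKM in A/J and 63.24, 60.27 and 63.09 in BALB/c, with C57BL/6J at 48.78, 46.86 and 40.77. As deposited the 3 strains did not overlap, with C57BL/6J between the others. Its log2 change was -0.86 (SE 0.14, adjusted p = 0.0141) for A/J against BALB/c. Against C57BL/6J, BALB/c was higher by 0.63 without passing (adjusted p = 0.0523). Mrpl4 was at 16.15, 16.18 and 21.28 in A/J and 25.68, 27.12 and 28.34 in BALB/c, while C57BL/6J had 22.02, 21.49 and 25.39, again in the order A/J, C57BL/6J, BALB/c and with no overlap as deposited. Its log2 change was -0.66 (SE 0.13, adjusted p = 0.032). On scaled values A/J and C57BL/6J overlapped in both genes, and only BALB/c stood apart, above all 6 other libraries. Both transcripts are rich in GC (59.4% and 60.1%). Neither call survived the GC correction (0.351 and 0.353), or the omission of A/J 1 and A/J 2 together (0.186 and 0.43). That of Mrpl14 was also lost without A/J 1 or any 1 BALB/c library (0.0776 to 0.102), and that of Mrpl4 as deposited (0.0713) and without any 1 library except A/J 3 and C57BL/6J 3 (0.0557 to 0.207). Exons of Mrpl14 overlap those of Tmem63b on the opposite strand over 11.2% of their length, and Tmem63b was not called (-0.54, adjusted p = 0.288).

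Mrpl27 was the 1 member called as lower in A/J than in each of the other strains. Its bacterial homologue reaches into the site where peptide bonds are made. It had 15.21, 17.22 and 12.81 RPKM in A/J and 30.75, 26.71 and 26.83 in BALB/c, with C57BL/6J at 32.86, 25.56 and 28.19. All A/J libraries lay below the other 6, and BALB/c and C57BL/6J overlapped. The mean in C57BL/6J (28.9 ± 3.7, SD, n = 3) was 1.91 times, and that in BALB/c (28.1 ± 2.3) 1.86 times, that in A/J (15.1 ± 2.21). The log2 change was -0.81 against C57BL/6J (SE 0.16, adjusted p = 0.0287) and -0.95 against BALB/c (SE 0.16, adjusted p = 0.0141). The first call held on leaving out C57BL/6J 3, A/J 2 or A/J 3, and was lost without any 1 of the other libraries (0.058 to 0.115), without A/J 1 and A/J 2 together (0.0726), and with only the 2 strains (0.162). The second was lost without A/J 1 or any 1 BALB/c library (0.0677 to 0.0831), and without A/J 1 and A/J 2 together (0.0588). Mrpl27 shares more sequence with other loci than any other member, 35.5% of its 31-base stretches, mostly with Gm6304 (28.0%).

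Beyond the calls, many members stood slightly higher in BALB/c. The mean of scaled values was highest in BALB/c for 46 members, in A/J for 23 and in C57BL/6J for 5, and it was lowest in C57BL/6J for 46. In 23 of 74 members (31.1%) all 3 BALB/c libraries exceeded all 6 others, against 5.92% of all genes tested. On the values as deposited these were 14 members (18.9%), against 3.05% of all genes. The 23 included 9 of the small subunit, 13 of the large subunit and Mrps36; 14 have a bacterial homologue and 8 are mitochondria-specific. Of the 23, 8 were called in a comparison with BALB/c and 15 were not. No member had all BALB/c libraries below the rest, while as deposited Mrpl10 and Mrps7 did (2.7%, against 12.9% of all genes). On scaled values C57BL/6J lay below all 6 others in 3 members (Mrpl15, Mrpl46 and Mrps30), near the 3.58% of all genes with that pattern.

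Members without overlap were also counted for each pair of strains, on scaled values. In 35 members (47.3%) the 3 BALB/c libraries lay above the 3 C57BL/6J libraries, against 13.4% of all genes, and in 1 (1.35%) below, against 11.7%. A/J lay below BALB/c in 27 (36.5%, against 13.6%) and above it in 2 (2.7%, against 15.6%). Against C57BL/6J, A/J was above in 5 (6.76%, against 8.44%) and below in 3 (4.05%, against 7.95%). As deposited, BALB/c lay above C57BL/6J in 20 members (27.0%, against 6.0% of all genes) and below it in 6 (8.11%, against 27.4%), namely Mrpl1, Mrpl10, Mrps10, Mrps23, Mrps27 and Mrps7. A/J then lay below BALB/c in 23 (31.1%, against 9.78%) and above it in 4 (5.41%, against 23.3%). It was above C57BL/6J in 3 (4.05%, against 5.26%) and below it in 9 (12.2%, against 11.0%). Counts at an unadjusted p under 0.05 were 27 members for BALB/c against C57BL/6J (13.8% of all genes), 21 for A/J against BALB/c (20.9% of all genes) and 6 for A/J against C57BL/6J (17.5% of all genes).

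The median log2 change of the members was 0.26 for BALB/c against C57BL/6J, -0.13 for A/J against BALB/c and 0.09 for A/J against C57BL/6J, where the median of all genes was -0.01 each time. As deposited, without scaling, these were 0.08, -0.06 and -0.01 while the medians of all genes were -0.17, 0.05 and -0.11, so the last of them changed sign with the scaling. In the first comparison 61 members were positive and 13 negative, in the second 26 and 48, and in the third 54 and 20. The medians depended on the libraries that stood apart. Without C57BL/6J 3 they were 0.13, -0.13 and 0, and without A/J 3 they were 0.26, -0.05 and 0.17. Without A/J 1 and A/J 2 they were 0.26, -0.30 and -0.05, and without A/J 3 and C57BL/6J 3 they were 0.13, -0.05 and 0.1. The last median also rose to 0.16 without C57BL/6J 1. The subunits had similar medians, 0.25, -0.16 and 0.06 for the small and 0.25, -0.13 and 0.1 for the large. Members with a bacterial homologue had 0.24, -0.15 and 0.1 and mitochondria-specific members 0.27, -0.12 and 0.09.

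Counts of calls moved with the libraries too. For BALB/c against C57BL/6J, 6 members became 11 without A/J 3 (14.9%, against 4.89% of all genes tested then). They became 1 without BALB/c 2 or BALB/c 3 (1.35%, against 1.22% and 1.16%), and 3 without A/J 1, A/J 2, BALB/c 1 or C57BL/6J 1 (4.05%, against 1.51% to 2.56%). Without C57BL/6J 2 or C57BL/6J 3 they became 4 (5.41%, against 2.17% and 3.08%). For A/J against BALB/c, 7 became 19 without A/J 3, a share of 25.7% below the 34.6% of all genes. They became 12 without C57BL/6J 3 (16.2%, against 4.72%), 2 without BALB/c 1 (2.7%, against 1.09%), and 1 without A/J 1, BALB/c 2 or BALB/c 3 (1.35%, against 0.613% to 1.0%). For A/J against C57BL/6J, 1 became 9 without A/J 3, of which 6 were higher in A/J and 3 lower, and this 12.2% also lay below the 28.2% of all genes. It became 0 without A/J 1, any 1 BALB/c library, C57BL/6J 1 or C57BL/6J 2, when 1.19% to 1.91% of all genes were called. Without A/J 1 and A/J 2 together the counts in this order were 3, 1 and 0 (4.05%, 1.35% and 0%, against 3.08%, 0.538% and 0.983%). Without A/J 3 and C57BL/6J 3 together, which leaves 2 libraries in A/J and in C57BL/6J, they were 20, 43 and 15 (27.0%, 58.1% and 20.3%, against 14.7%, 60.2% and 39.4%).

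Spread between libraries of a strain was smallest in BALB/c. The median SD of a member's log2 values was 0.20, 0.10 and 0.23 for A/J, BALB/c and C57BL/6J, against 0.26, 0.10 and 0.25 for all genes. The most even members were Mrpl2, whose bacterial homologue helps form the site of peptide bond formation, Mrpl54, a mitochondria-specific protein, and Mrpl10, which anchors the stalk that recruits translation factors. Mrpl2 had 31.77, 32.94 and 33.57 RPKM in A/J and 30.48, 31.87 and 34.06 in BALB/c, while C57BL/6J had 32.46, 32.41 and 35.97. Its SD within strains was 0.05 on the log2 scale, and no comparison passed (adjusted p 0.669 to 0.83). Mrpl54 was at 46.57, 43.03 and 46.66, then 53.08, 52.85 and 53.76, then 50.75, 49.2 and 52.86. Mrpl10 was at 28.57, 28.75 and 31.71, then 25.96, 23.45 and 25.1, then 27.29, 27.86 and 28.15. A/J was the lowest strain for Mrpl54 and the highest for Mrpl10 as deposited, and neither gene was called.

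The members that varied most within strains were Mrpl32, Mrpl33, Mrps10, Mrps22 and Mrpl35. Mrpl32, whose maturation by a mitochondrial protease is a known step of ribosome assembly, had 18.72, 18.29 and 9.17 RPKM in A/J and 19.52, 15.21 and 16.47 in BALB/c, with C57BL/6J at 16.31, 12.7 and 7.24. Mrpl33 was at 39.47, 46.7 and 22.85, then 41.73, 33.15 and 40.87, then 32.99, 24.82 and 14.4. Mrpl35 was at 8.83, 9.7 and 6.85, then 9.52, 6.6 and 7.62, then 8.28, 7.01 and 3.21. In these 3 genes of the large subunit, A/J 3 and C57BL/6J 3 were the low libraries of their strains. Mrps22, mutated in a human mitochondrial disorder, was at 17.68, 16.68 and 8.54, then 12.5, 10.86 and 10.69, then 17.83, 9.71 and 8.38. Mrps10 went the other way in 1 library, at 15.34, 16.92 and 11.12, then 11.13, 8.44 and 10.94, then 16.13, 11.18 and 37.69. Its value in C57BL/6J 3 was thus the highest of the 9 by a wide margin, and its log2 change of -0.71 for BALB/c against C57BL/6J did not pass (adjusted p = 0.425).

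Several of the larger log2 changes did not pass the test. Mrpl33 had 0.92 for BALB/c against C57BL/6J (adjusted p = 0.291) and 0.71 for A/J against C57BL/6J (adjusted p = 0.316). Mrpl35 and Mrpl49 had 0.60 and 0.63 for A/J against C57BL/6J (adjusted p = 0.332 and 0.179). Mrpl49 had 65.11, 67.32 and 47.23 RPKM in A/J and 52.27, 48.45 and 53.35 in BALB/c, while C57BL/6J had 52.09, 36.65 and 36.62. A/J 1 and A/J 2 were its highest libraries. Mrps12, whose bacterial homologue sits at the decoding site, was at 11.73, 9.98 and 18.68 in A/J and 16.8, 20.13 and 21.54 in BALB/c, with C57BL/6J at 20.66, 27.96 and 26.04. All A/J libraries lay below all C57BL/6J libraries, with a log2 change of -0.79 (adjusted p = 0.133). Mrpl55 was at 12.34, 14.15 and 10.05, then 15.8, 14.72 and 17.92, then 16.65, 15.95 and 17.83, with -0.35 against C57BL/6J (adjusted p = 0.273). A/J was the lowest strain for both.

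Mrps23, Mrpl50 and Mrpl1 had their lowest mean as deposited in BALB/c, and none of them was called. On scaled values this held for Mrps23 and Mrpl1, while Mrpl50 had a log2 change of 0.02 for BALB/c against C57BL/6J. Mrps23 had 25.87, 27.17 and 19.47 RPKM in A/J and 20.95, 18.77 and 18.17 in BALB/c, while C57BL/6J had 35.26, 24.72 and 25.73 (BALB/c minus C57BL/6J -0.36, adjusted p = 0.471). Mrpl50 was at 19.01, 21.69 and 12.84, then 13.8, 10.85 and 11.48, then 15.65, 13.95 and 10.82. For Mrpl50 the log2 change of A/J against BALB/c was 0.46 (adjusted p = 0.286), and for Mrpl1 it was 0.50 (adjusted p = 0.26). Both rested on A/J 1 and A/J 2, since A/J 3 lay within the range of the BALB/c libraries as deposited. After scaling this still held for Mrpl50, while for Mrpl1 A/J 3 lay below all BALB/c libraries. Without A/J 3 both were called, at 0.69 and 0.81, and without A/J 1 and A/J 2 the values were -0.02 and -0.12.

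The members' order across libraries varied with the GC content of the transcript. In 53 members A/J 1 and A/J 2 both lay above A/J 3, and the median GC content of these was 49.3%. In 16 members both lay below A/J 3, with a median GC content of 55.6%, and in 5 A/J 3 lay between. Across the 74 members, the Spearman correlation between GC content and the log2 deviation from the gene's mean was -0.48 in A/J 1 and -0.56 in A/J 2 but 0.33 in A/J 3. In BALB/c it was -0.16, 0.26 and 0.26, and in C57BL/6J -0.21, 0.42 and 0.34. Genes are not independent replicates, and each such value describes 1 library. All 12695 genes tested with a known GC content had correlations of the same sign as the members in every library except BALB/c 1, where theirs was 0.1. C57BL/6J 3 had the lowest scaled value of the 9 in 43 members, and its median deviation was -0.32. The part of GC content in the strain differences was not tested beyond the correction. Under it 10 members were called for BALB/c against C57BL/6J (13.5%, against 4.55% of all genes). For A/J against BALB/c 10 were called (13.5%, against 3.33%), and for A/J against C57BL/6J 1 (1.35%, against 3.98%).

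**Figure D3:**
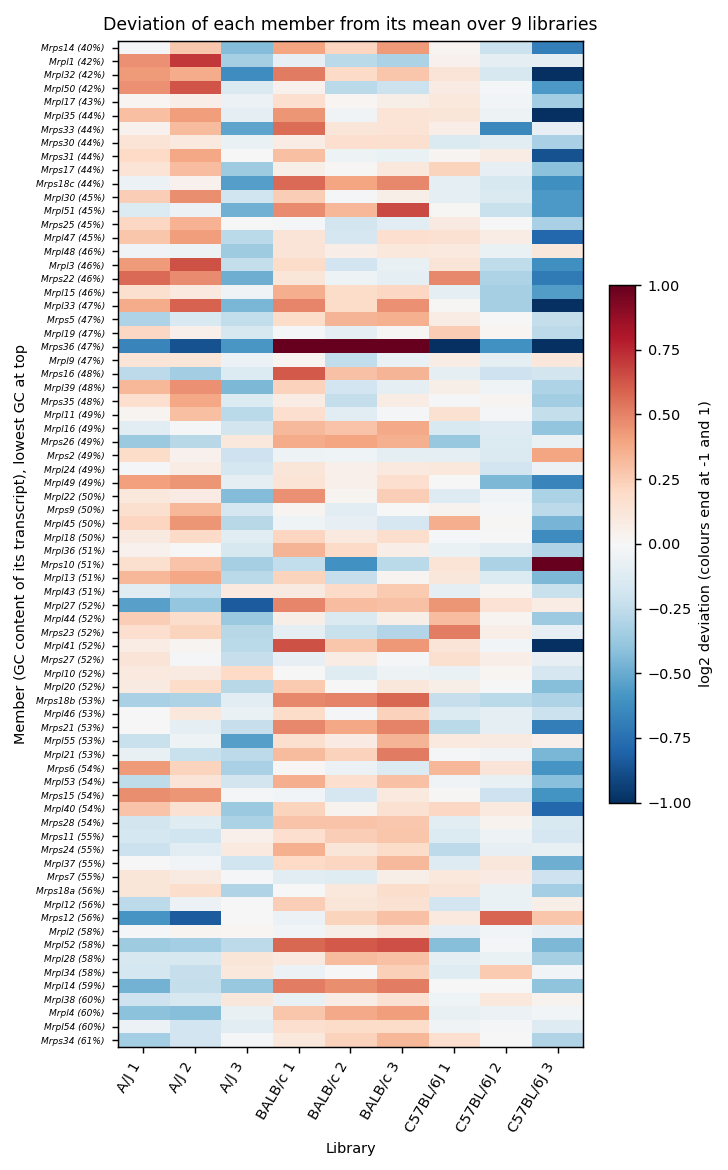
Log2 deviation of each of the 74 members (rows, from lowest GC content at the top to highest at the bottom) from its mean over the 9 libraries (columns), red above and blue below the mean, with colours ending at -1 and 1. A/J 1 and A/J 2 are mostly red at the top and blue at the bottom, A/J 3 is blue in most rows and palest at the bottom (median deviations -0.25, -0.22 and -0.08 in groups of 25, 24 and 25 members by rising GC content), C57BL/6J 3 is blue in most rows, and Mrps36 is the row with the strongest red in BALB/c.

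Length was a further property the members share. Their transcripts have a median length of 1327 bases against 3151 for all genes, and with all genes in 5 equal groups by length, 49 of the 74 fall in the shortest, of up to 1803 bases. The shortest group of all genes had a median log2 change of 0.15 for BALB/c against C57BL/6J, while the longest group had -0.08. For A/J against BALB/c these medians were -0.13 and 0.01, and for A/J against C57BL/6J 0.03 and -0.08. The members' own medians, 0.26, -0.13 and 0.09, are thus on the side of the short genes. Among the 74 members the Spearman correlation of log2 change with length was -0.29, 0.44 and 0.21 in this order. Over all genes tested with a known length it was -0.27, 0.12 and -0.09. For A/J against C57BL/6J the members thus had the opposite sign to all genes. Whether length has a part in the members' differences was not tested.

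**Figure D4:**
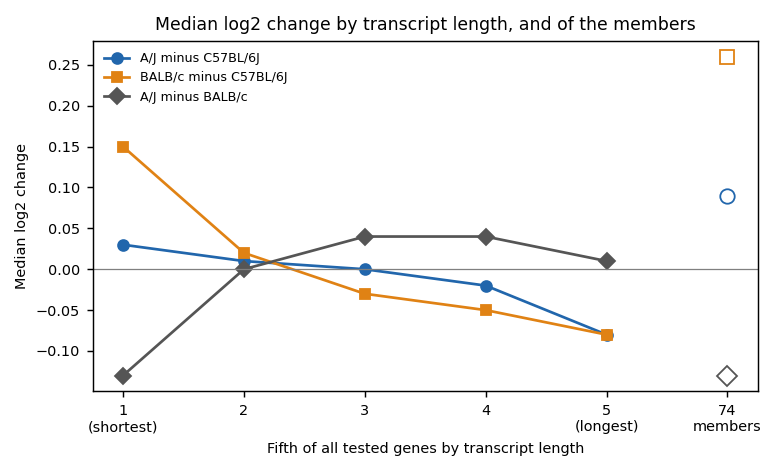
Median log2 change (y axis) of all genes tested in 5 equal groups by transcript length (x axis, shortest to longest, filled markers joined by lines), with the median of the 74 members at the right (open markers), for the 3 comparisons. The shortest group lies at 0.15 for BALB/c minus C57BL/6J, 0.03 for A/J minus C57BL/6J and -0.13 for A/J minus BALB/c, and the members at 0.26, 0.09 and -0.13.

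The 9 called members were shorter and slightly richer in GC at the median than the other 65, given here as a description. Their median GC content was 52.6% against 49.9%, and their median length 756 against 1411 bases. A median of 6.4% of their 31-base stretches occurred at other loci, against 1.7%, and 4 of the 9 against 10 of the 65 shared at least 10%. Leaving out the 4 members that share 20% or more (Mrpl22, Mrpl27, Mrpl41 and Mrps36) left 5, 5 and 0 calls for BALB/c against C57BL/6J, A/J against BALB/c and A/J against C57BL/6J. These were 7.14%, 7.14% and 0% of the 70 members kept, against 3.09%, 2.48% and 2.69% of all genes.

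Lists for the rest of the machinery of mitochondrial gene expression held no called strain difference. The lists were mitoribosome proteins under other symbols (7 genes, such as Dap3 and Ptcd3), assembly factors (26), translation factors (15), mitochondrial aminoacyl-tRNA synthetases (22), and transcription and upkeep of mitochondrial DNA (19). None of these genes was called by limma in any comparison. Over all genes the called shares were 3.09% for BALB/c against C57BL/6J, 2.48% for A/J against BALB/c and 2.69% for A/J against C57BL/6J. At such shares, lists of 7 to 26 genes would hold few calls or none. At an unadjusted p under 0.05, for BALB/c against C57BL/6J, A/J against BALB/c and A/J against C57BL/6J, there were 3, 3 and 1 of the 7, 2, 2 and 3 of the 26, 1, 2 and 1 of the 15, 0, 1 and 0 of the 22, and 1, 2 and 5 of the 19. The shares of all genes at that threshold were 13.8%, 20.9% and 17.5% in the same order. The medians that follow are those of the 5 lists. Their medians for BALB/c against C57BL/6J were 0.09, 0.05, 0.06, -0.09 and 0.06, all below the 0.26 of the members, and this difference was not tested. Median transcript lengths of these lists were 2138 to 3137 bases, longer than those of the members.

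Of 11 regulators of nuclear mitochondrial genes, among them Nrf1, Gabpa, Yy1 and the PGC-1 coactivators, 1 was called. Ppargc1b, a coactivator of mitochondrial biogenesis, had 9.66, 11.58 and 14.64 RPKM in A/J and 15.62, 15.79 and 17.32 in BALB/c, with C57BL/6J at 6.66, 8.94 and 9.84. BALB/c lay above both other strains, with a log2 change of 1.09 against C57BL/6J (SE 0.17, adjusted p = 0.01). Among the 11, the median log2 change in that comparison was -0.02.

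The 2 groups of genes most like the members by role had larger shares of calls in both comparisons with BALB/c. All genes tested had shares of 3.09% for BALB/c against C57BL/6J, 2.48% for A/J against BALB/c and 2.69% for A/J against C57BL/6J. Of 81 respiratory chain and ATP synthase genes tested, 14 (17.3%) were higher in BALB/c than in C57BL/6J and none lower, with a median of 0.49. In A/J 9 were lower than in BALB/c (median -0.42) and 1 was lower than in C57BL/6J (median 0.09). Of 89 genes with symbols of cytoplasmic ribosomal proteins, 20 were higher and 7 lower in BALB/c than in C57BL/6J (median 0.39), and 24 were lower and 1 higher in A/J than in BALB/c (median -0.68). Against C57BL/6J, 9 of the 89 were lower in A/J and none was higher (median -0.1). These lists are also short, with median lengths of 908 and 977 bases, and cytoplasmic ribosomal protein genes have many near-identical copies among which reads could be split. Some respiratory chain genes called higher in BALB/c were near 0 RPKM in C57BL/6J, such as Atp5l (2.18, 0 and 0.28) and Cox7c (1.02, 2.22 and 0.22). Ndufs5, also called, was not (14.86, 15.69 and 16.24). How reads were assigned to such genes was not tested. Whether the members differ from either list was not tested either.

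Among markers of eye cell types, 3 keratins of the surface epithelium, Krt4, Krt13 and Krt15, were lower in A/J and in BALB/c than in C57BL/6J (log2 changes -2.68 to -3.26 and -1.57 to -2.07, adjusted p 0.000238 to 0.0149). The other 3 markers of that epithelium, Aldh3a1, Krt5 and Krt12, were not called, at 0.03, -0.11 and 0.62 in A/J and 0.23, 0.30 and 0.57 in BALB/c against C57BL/6J. Summed over the 6 markers of that epithelium, levels spanned 4712 to 5882 RPKM for A/J, 5075 to 6146 for BALB/c and 4197 to 6885 for C57BL/6J. The 6 lens markers summed to 78465 to 91167, 94352 to 102128 and 38554 to 72915 RPKM in the same order. No lens marker was called by limma, while at an unadjusted p under 0.05 there were 4 of 6 for BALB/c against C57BL/6J, 3 for A/J against C57BL/6J and 1 for A/J against BALB/c. The rod marker Sag was higher in A/J than in C57BL/6J (1.11, adjusted p = 0.00648). The rod markers Cnga1, Gnat1, Nrl and Pde6b were not called in that comparison, at 0.52, -0.28, -0.43 and -0.06. The lens sum, like many members, was highest in BALB/c, and its part in the members' differences was not tested.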

How the data were processed

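Poly(A) RNA of whole eyes was sequenced in 9 libraries, 3 per strain. For each library the authors deposited a table of 13089 genes with 1 value per gene. The tools CASAVA 1.7 and GenomeStudio and the mouse build mm9 are named in the submitters' processing notes. How reads were counted, and on which gene models, is not given in the sources used here. Headers carry no unit. RPKM was inferred for the deposited values, since value times transcript length came to 99.4% to 101.8% of the sum expected for RPKM in 8 libraries and 117.4% in C57BL/6J 3. Reads could not be recovered (at most 23.0% to 28.4% of low values came within 0.1 of a whole number of reads), so the depth is unknown and no counting interval is given. No 2 libraries were identical.

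Scaling used median-of-ratios factors (0.931 to 1.158), and log2 was taken after adding 0.5, a scale that understates changes of low genes. Genes with 1 RPKM in at least 3 libraries were tested (12920, with 169 left out) with limma 3.58.1 in R 4.3.3, two-sided, with a trended prior and robust estimation, strain as the only term, all 9 libraries in 1 fit, and Benjamini-Hochberg adjustment over all genes. The fit was also run on simulated data with independent scatter for each gene. Such data lack the GC-linked deviations of these libraries, so that run cannot show how they affect the calls. Means and SDs are of RPKM as deposited over 3 libraries. Counts of non-overlapping libraries and orders of strain means use scaled values unless stated.

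Length, GC content, exon overlaps and shared 31-base stretches came from the GENCODE annotation on GRCm38, which is not the authors' build, for 12859 genes (98.2%) and all 74 members. Promoters came from RefSeq (GRCm38.p6). Of 140 genes asked for in 13 lists, 136 were found, and 2 further lists were chosen by symbol.

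The members and lists were chosen with earlier results of these data known. Named members were those called, the 3 highest and 3 lowest by mean, the 5 most and 3 least variable within strains, and the 3 largest changes in each direction per comparison. The other genes of the Mrps18 trio, the neighbours of Mrps36 and Tmem63b were named after values were seen. Alternatives were other pseudocounts (0.1 and 1), no filter, no scaling, quantile normalization, fits of 2 strains, a replicate block, a GC correction, omission of libraries, and omission of members sharing sequence.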

Additional observations from a re-analysis of the deposited data

How the results depend on the processing

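Members called for BALB/c against C57BL/6J, A/J against BALB/c, A/J against C57BL/6J and any strain difference numbered 6, 7, 1 and 7. Leaving out 1 library at a time gave 1 to 11, 1 to 19, 0 to 9 and 1 to 22, each highest without A/J 3, when 4.89%, 34.6%, 28.2% and 32.8% of all genes were called. Without A/J 1 and A/J 2 together the counts were 3, 1, 0 and 4, and without A/J 3 and C57BL/6J 3 together 20, 43, 15 and 41. The latter were 27.0%, 58.1%, 20.3% and 55.4%, against 14.7%, 60.2%, 39.4% and 61.6% of all genes. The GC correction gave 10 for the first (13.5%, against 4.55%) and 12 for the last (16.2%, against 6.38%). With the replicate block added these were 10 and 11 (13.5% and 14.9%, against 3.95% and 5.74%). Quantile normalization gave 3 for the first (4.05%, against 2.98%). With only the 2 strains in the fit the first was 3 (4.05%, against 3.04%). A/J against C57BL/6J was then 0 (against 1.08%), as it was without members sharing sequence. Pseudocounts and the filter changed none of these counts by over 1.5 times. Members with BALB/c above all 6 others numbered 14 as deposited, not 23, an alternative chosen after seeing the data, as were 22 with quantile normalization and 25 after GC correction. These counts were 18.9%, 29.7% and 33.8% of the members, against 3.05%, 5.57% and 6.3% of all genes. Of the pairwise counts without overlap, also recounted as deposited after seeing the data, BALB/c above C57BL/6J fell from 35 to 20 and below rose from 1 to 6. A/J above BALB/c went from 2 to 4, and A/J above and below C57BL/6J from 5 to 3 and from 3 to 9. Named changes that turned sign were those of Mrpl1 (-0.12) and Mrpl50 (-0.02) for A/J against BALB/c, without A/J 1 and A/J 2. The cause of these shifts was not tested. Whether replicate numbers pair the libraries is not settled. Same-numbered libraries of different strains had correlations of -0.51 to 0.54 in their deviations from strain means, and differently numbered ones -0.67 to 0.6. The replicate block gave 5, 7, 1 and 6 calls (6.76%, 9.46%, 1.35% and 8.11%, against 3.08%, 2.89%, 3.14% and 4.67% of all genes). The unknown depth limits the low members, Mrps36 above all.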
